A study of Homo sapiens with 29 samples.

Results

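The BCL2 family decides at the mitochondrion whether a stressed cell lives or dies, and 10 of its genes are described here in the human β-cell line EndoC-βH1. They are the antiapoptotic genes BCL2, BCL2L1 (Bcl-xL) and MCL1, the effectors BAX and BAK1, and the BH3-only genes BID, BCL2L11 (BIM), BBC3 (PUMA), PMAIP1 (NOXA) and BAD. Members were the entries of the count table whose Ensembl identifier maps to these symbols. Each of the 10 symbols had 1 entry among 66025, and all 10 passed the filter on low counts that left 21259 genes for testing.

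The cells were grown for 10 days in medium that HEK293 cells, a human embryonic kidney line, had conditioned. There were 9 libraries from medium of cells that stably overexpressed an empty vector (EV medium), 10 from medium of cells with wild-type CEL (WT) and 10 from medium of cells with a mutant CEL (MUT) whose mutation the labels do not name. The gene codes for carboxyl ester lipase, which acinar cells of the pancreas secrete for fat digestion, and its mutations cause the inherited diabetes MODY8. All groups therefore share the HEK293 conditioning, the daily renewal of the medium, the filtration and the adjustment to equal protein. The labels assign the libraries to 3 batches, without saying what a batch shares. There were 3 libraries of every medium in every batch, except for 4 of WT and 4 of MUT in batch 1. Whether they are separate cultures is not stated, and the p-values therefore measure a spread that may be technical. Since a batch holds a single set of libraries per medium, a response to the medium and a difference between sets cannot be told apart.

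Antiapoptotic members hold BAX and BAK1 in check. BH3-only proteins, which carry a single BCL2 homology domain, relay stress signals by binding the antiapoptotic members or by activating BAX and BAK1, which then permeabilise the outer mitochondrial membrane and release cytochrome c. PMAIP1 binds mainly MCL1, a short-lived protein, and BID is cut by caspase-8 to link death receptors to mitochondria. In β cells these proteins are known from cell death under cytokines, ER stress and lipid overload. Much of their control acts on protein rather than on RNA, which alone was measured here.

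The regions before the start sites of PMAIP1, whose differences between media varied most between batches among the members, and of BBC3, which showed the largest fold change, are shown for context. RefSeq's promoter table (GRCh38.p14) matched 9 of the 10 members. Each sequence runs 5′ to 3′ on the strand of its gene and leaves out bases inside the GENCODE gene. Capitals mark TGACGT or its reverse complement ACGTCA, the core of the element that CREB and ATF factors recognise.
PMAIP1, chr18:59899746-59899947, plus strand: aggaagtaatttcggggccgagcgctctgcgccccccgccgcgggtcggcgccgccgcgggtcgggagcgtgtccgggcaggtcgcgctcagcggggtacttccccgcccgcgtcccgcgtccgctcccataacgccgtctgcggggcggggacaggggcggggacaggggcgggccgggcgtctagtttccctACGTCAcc
BBC3, chr19:47232767-47232917, minus strand: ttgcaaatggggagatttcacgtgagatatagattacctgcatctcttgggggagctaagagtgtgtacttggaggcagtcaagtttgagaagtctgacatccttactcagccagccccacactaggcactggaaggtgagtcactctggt
The PMAIP1 region held the motif once, beginning 56 bases before the RefSeq start, and the BBC3 region did not hold these letters. In the 250 bases before the start, searched on both strands, 2 of the 9 members with an entry held it at any of their starts (PMAIP1 and BAD). Of the 34943 promoters in the table, each counted singly, 7.09% held it. The 2 values are not alike, since a member can have several starts (5 for BID). A match describes the sequence and is no evidence of binding.

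Totals ran from 26.2 to 40.2 M estimated counts per library. CPM are counts relative to library size after TMM scaling. The marker sums and the threshold of 1 CPM on markers use library totals without that scaling. β-cell markers were high throughout (15 of 15 with a mean of at least 1 CPM), and INS ran from 8560 to 19500 CPM. None of the 3 endothelial markers reached that level, and the summed HEK293 markers lay between 14.9 and 21.9 CPM in every group. Markers of other cell types were present too. Alpha-cell markers summed to 721 to 1690 CPM (3 of 4 at that level) and delta-cell markers to 20.7 to 253 (2 of 2). Duct markers summed to 36.3 to 59.8 CPM (2 of 4). CEL itself was low, at 1.26 to 13.5 CPM, and did not pass the test between media in any batch. The counting depth differed greatly between members. BCL2 had 26 to 86 counts per library and BBC3 19 to 122, which leaves a counting error of 19.6% and 22.9% at the lowest counts. The other 8 members had at least 586 counts in each library, with a counting error of at most 4.13%. BAD shares 404 exonic bases with GPR137 on the opposite strand, a gene with more counts (mean 1643 against 1269), so its values are uncertain if reads were assigned without strand. The kit preserves strand, but whether the counting used it is not given in the sources used here. For the other members, overlapping genes held far fewer counts than the member. BAK1 has the pseudogenes BAK1P1 and BAK1P2, which held a mean of 3 and 0 counts.

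Among the antiapoptotic members BCL2L1 was the most abundant and BCL2 the least. In these bulk samples fewer cells of a type and less RNA per cell cannot be told apart. Per kilobase of the longest coding transcript, BCL2L1 stood at 94.5 ± 6.61 CPM per kb (SD over 29 libraries), MCL1 at 43.2 ± 4.33 and BCL2 at 0.186 ± 0.0441. The effector BAX stood at 58.4 ± 4.49 CPM per kb and BAK1 at 10.9 ± 0.844. Of the BH3-only genes, PMAIP1 (33.3 ± 4.9) and BAD (32.5 ± 3.43) led, followed by BID (12.2 ± 2.42), BCL2L11 (9.33 ± 0.75) and BBC3 (0.711 ± 0.472). The order was thus BCL2L1, BAX, MCL1, PMAIP1, BAD, BID, BAK1, BCL2L11, BBC3 and BCL2. Between neighbours in this order the ranges over the libraries overlapped for BAX and MCL1, MCL1 and PMAIP1, PMAIP1 and BAD, BID and BAK1, and BAK1 and BCL2L11, and for no others. With the median transcript length BCL2L11 moved up, to 55.3 CPM per kb, above PMAIP1 at 51.5, while the 3 highest and the 2 lowest genes kept their places.

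Batch held the largest share of the variance for 6 of the 10 members. Of the variance of log2 CPM, batch took 83% for BID, 73.1% for BBC3 and 66.1% for BCL2L11, against a median of 46.7% over all genes tested. Medium averaged over the batches held between 0.493% (BAD) and 20.5% (MCL1), with a median of 4.84% over all genes. For PMAIP1, BCL2 and MCL1 the largest share lay in medium differences that varied between batches, at 72%, 47.1% and 33.8%, where the median over all genes was 14.4%. For MCL1 batch took nearly as much, 33.5%.

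**Figure D1:**
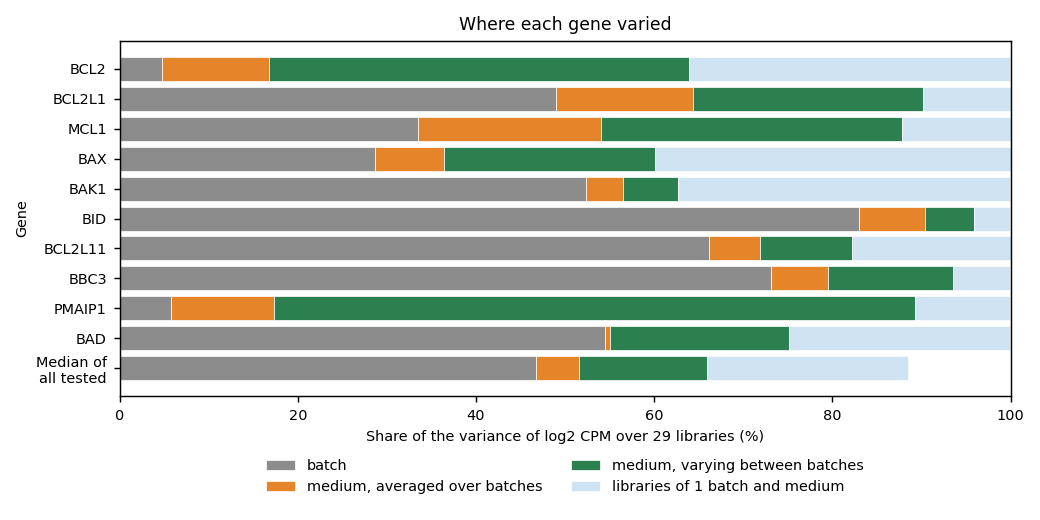
Share of the variance of log2 CPM over 29 libraries (x axis, percent) for each of the 10 genes, split into batch, medium averaged over batches, medium varying between batches, and libraries of 1 batch and medium. BID was set mostly by batch (83%), PMAIP1 mostly by medium differences that varied between batches (72%). The last bar holds medians taken separately over all genes tested, so it does not add to 100%.

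PMAIP1 (chromosome 18, 59899948 to 59904306, GRCh38, plus strand) encodes NOXA, the BH3-only partner of MCL1. In batch 2 it stood at 55.9, 52.4 and 57.3 CPM in the EV libraries, at 63.7, 65.1 and 62.3 in WT, and at 89.1, 87.9 and 85.5 in MUT. Every MUT library of that batch lay above every WT library, and every WT above every EV library. In batch 3 the order was turned. EV gave 70.5, 66.7 and 67.9 CPM, WT 72.7, 62.8 and 63.3, and MUT 55.5, 53.3 and 54.7, so all MUT libraries lay below all others. Batch 1 showed EV at 51.6, 64.9 and 57.6, WT at 64.3, 65.4, 67.9 and 66.1, and MUT at 66.2, 63.9, 67.5 and 59.8, with overlapping groups. PMAIP1 rose 1.59-fold in MUT against EV medium in batch 2 (log2 0.67 ± 0.04 SE, adjusted p = 1.8e-09, edgeR quasi-likelihood test) and 1.38-fold against WT medium (log2 0.46 ± 0.04, adjusted p = 3.4e-07). In batch 3 it fell by 0.28 ± 0.06 on the log2 scale against WT medium (adjusted p = 0.037), a call that was lost when any of 6 of the 9 libraries was left out. Against EV medium the batch 3 value was -0.33 ± 0.06 with an adjusted p of 0.093, and 6 of the 7 other ways of fitting that batch called it. The test of a MUT vs EV difference that varied between batches gave an adjusted p of 8.3e-10. Pooled over batches these opposite values left 0.17 ± 0.09 (adjusted p = 0.24).

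MCL1 (chromosome 1, 150574551 to 150579738, minus strand) encodes the short-lived antiapoptotic protein that NOXA binds. Its CPM in batch 2 were 171, 157 and 159 in EV, 184, 185 and 176 in WT, and 213, 197 and 207 in MUT, again in the order EV, WT, MUT with no overlap. In batch 1, EV libraries had 147, 159 and 160 CPM, WT 161, 153, 166 and 170, and MUT 175, 186, 183 and 177. Here too every MUT library lay above all others. Batch 3 had 157, 158 and 169 CPM in EV, 176, 160 and 162 in WT, and 151, 153 and 146 in MUT, so its MUT libraries were the lowest. MCL1 rose in MUT against EV medium in batch 2 (log2 0.34 ± 0.04, adjusted p = 4.4e-06) and in batch 1 (0.20 ± 0.05, adjusted p = 0.049, a call lost without any of 9 of the 11 libraries). The batch 3 value was -0.11 ± 0.05 (adjusted p = 0.34). This difference between batches passed its own test (adjusted p = 1.5e-05), as it did for MUT vs WT (adjusted p = 6.0e-04).

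The ratio of PMAIP1 to MCL1, is given as a description with no test. In batch 2 its log2 value was -1.56 ± 0.07 in EV (SD, n = 3), -1.51 ± 0.02 in WT and -1.23 ± 0.06 in MUT. In batch 3 it was -1.24 ± 0.08, -1.33 ± 0.04 and -1.46 ± 0.05, with MUT the lowest. In batch 1 it was -1.42 ± 0.12 in EV, -1.30 ± 0.06 in WT (n = 4) and -1.49 ± 0.08 in MUT (n = 4). For BID to BCL2L1, MUT libraries of batch 2 stood at -2.68 ± 0.06 and EV and WT at -2.90 ± 0.10 and -2.91 ± 0.06. BAX to BCL2L1 in that batch was -1.83 ± 0.04 in MUT, -1.77 ± 0.07 in WT and -1.73 ± 0.06 in EV, so the 3 ratios did not move one way there. In batch 3 BAX to BCL2L1 was -1.63 ± 0.02 in MUT and -1.76 ± 0.05 in EV. In batch 1 it was -1.59 ± 0.08 and -1.42 ± 0.06. BID to BCL2L1 in batch 3 was -2.92 ± 0.01 in MUT and -3.07 ± 0.01 in EV, and in batch 1 -3.33 ± 0.11 and -3.27 ± 0.11.

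**Figure D2:**
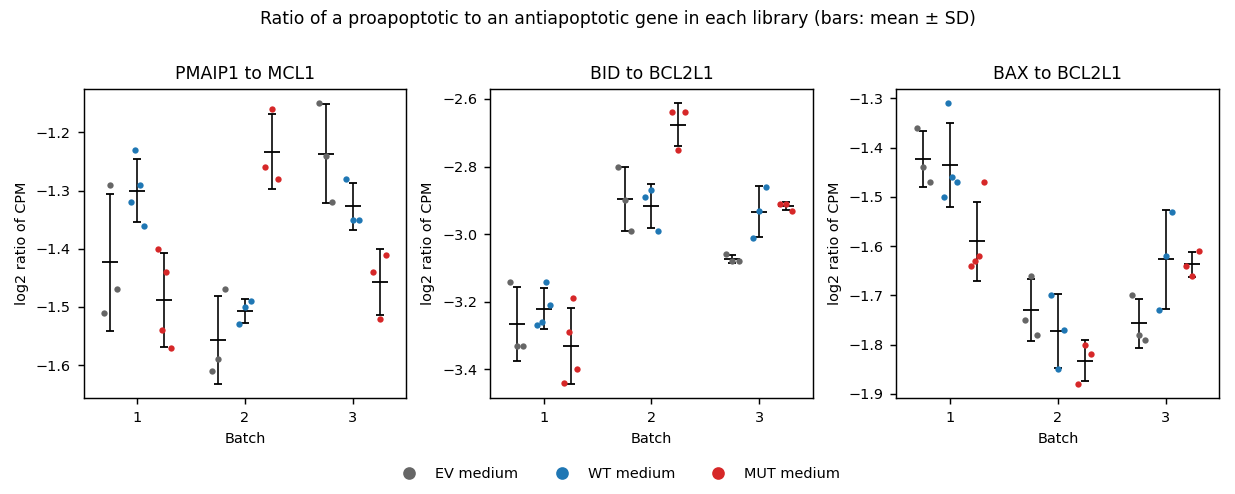
The log2 ratio of CPM of a proapoptotic to an antiapoptotic gene (y axis) in each of the 29 libraries by batch (x axis) and medium (colour), with mean ± SD. Compared within a batch, PMAIP1 to MCL1 was highest in MUT in batch 2 (mean -1.23) and lowest in MUT in batch 3 (mean -1.46).

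BID (chromosome 22, 17734138 to 17774770, minus strand), whose protein caspase-8 cleaves, was at 32.6, 31.3 and 30.2 CPM in the EV libraries of batch 2, at 36.3, 38.3 and 34.5 in WT, and at 42.1, 40.4 and 41.5 in MUT. The groups followed the order EV, WT, MUT without overlap. In batch 3 EV had 30.4, 30.5 and 29.6 CPM, WT 30.3, 32.7 and 34.3, and MUT 33.5, 35.2 and 34.7. MUT lay above EV there, and WT overlapped both. Batch 1 held lower levels in all media (21.9 to 25.5 CPM) and no separation. In batch 2 BID rose in MUT against EV medium (0.40 ± 0.05, adjusted p = 5.0e-06), in MUT against WT (0.19 ± 0.05, adjusted p = 0.0076) and in WT against EV (0.21 ± 0.05, adjusted p = 0.0035). The batch 3 value for MUT vs EV, 0.19 ± 0.06, had an adjusted p of 0.18, and that of batch 1 was -0.01 ± 0.06. Whether the MUT vs EV difference varied between batches passed its test (adjusted p = 8.2e-04).

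BBC3 (chromosome 19, 47220822 to 47232766, minus strand) encodes PUMA, a BH3-only protein that binds the antiapoptotic members. It had 1.25, 1.28 and 1.27 CPM in the EV libraries of batch 2, 3.59, 3.02 and 3.44 in WT, and 1.92, 2.65 and 2.55 in MUT. Here WT medium gave the highest values and MUT lay between. All 20 libraries of batches 1 and 3 held 0.648 to 1.19 CPM, below every library of batch 2. BBC3 rose 2.64-fold in WT against EV medium in batch 2 (log2 1.40 ± 0.15, adjusted p = 1.4e-06) and 1.89-fold in MUT against EV (0.92 ± 0.16, adjusted p = 1.1e-04). It was lower in MUT than in WT by a log2 value of -0.48 ± 0.14 (adjusted p = 0.014), a call lost with DESeq2 and with a correction for GC content and length. WT vs EV differed between batches for BBC3 (adjusted p = 5.0e-05), with -0.15 ± 0.23 in batch 1 and 0.19 ± 0.23 in batch 3.

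BCL2 (chromosome 18, 63123346 to 63320128, minus strand), the founding antiapoptotic member, was lower in both CEL media in batch 2. It had 1.72, 1.71 and 2.18 CPM in EV, 1.03, 1.41 and 0.92 in WT, and 1.22, 0.875 and 0.91 in MUT. All EV libraries of batch 2 lay above all others of that batch. BCL2 fell by 0.90 ± 0.20 on the log2 scale in MUT against EV medium (adjusted p = 0.0013) and by 0.75 ± 0.20 in WT against EV (adjusted p = 0.007). In batch 1 the EV libraries (1.14 to 1.30 CPM) were low instead, below all 4 MUT libraries (1.31 to 1.86), with 0.33 ± 0.18 and an adjusted p of 0.3. Batch 3 gave -0.36 ± 0.22 (adjusted p = 0.46). The variation between batches passed its test for MUT vs EV (adjusted p = 0.002) and WT vs EV (adjusted p = 0.0087).

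BCL2L1 (chromosome 20, 31664452 to 31723989, minus strand) encodes Bcl-xL, which restrains BAX and BAK1 and binds BH3-only proteins. In batch 2 its EV libraries had 228, 233 and 240 CPM, WT 269, 280 and 273, and MUT 263, 272 and 258. EV lay below both CEL media, which overlapped each other. BCL2L1 rose in WT against EV (0.23 ± 0.04, adjusted p = 1.0e-04) and in MUT against EV (0.18 ± 0.04, adjusted p = 5.6e-04) in that batch. In batches 1 and 3 every WT library lay just below every EV library, at 223 to 225 against 225 to 236 CPM and at 244 to 249 against 250 to 257, with the same value of -0.03 ± 0.04 in both. WT vs EV differed between batches (adjusted p = 2.7e-04). Of the 10 members BCL2L1 alone had MUT vs EV values of a single sign in the 3 batches, at 0.05, 0.18 and 0.04.

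BAX (chromosome 19, 48954815 to 48961798, plus strand), which forms pores in the outer mitochondrial membrane, had 67.8, 73.9 and 70.1 CPM in EV, 82.5, 77.8 and 80.1 in WT and 71.6, 78.1 and 73.4 in MUT in batch 2, and WT lay above EV. It rose in WT against EV there (0.18 ± 0.05, adjusted p = 0.0049). The MUT vs EV values of BAX were -0.11, 0.08 and 0.16 in batches 1, 2 and 3. None passed alone, and their variation between batches did (adjusted p = 0.044), a call lost with offsets for GC content and length and with scaling by total library size. With those offsets the batch 2 value of BAX was 0.12 and passed (adjusted p = 0.0017). BAK1 (chromosome 6, 33572547 to 33580293, minus strand), the other effector, ran from 20.0 to 27.7 CPM over the 29 libraries. In none of the 3 batches did it pass between media with edgeR, DESeq2 or voom, and its MUT vs EV value in batch 2, 0.12 ± 0.05, had an unadjusted p of 0.033. With offsets for GC content and length that value was 0.14 and passed (adjusted p = 0.034).

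BCL2L11 (chromosome 2, 111119378 to 111168447, plus strand) encodes BIM, a BH3-only protein that binds all antiapoptotic members. It ran from 43.5 to 59.9 CPM over the libraries and passed in no comparison of media with all libraries of a batch or of all batches in edgeR, DESeq2 or voom. Other edgeR settings called it for MUT vs EV, with offsets for GC content and length in batch 2 (0.13, adjusted p = 0.0072), in a model of 9 batch and medium groups in batch 1 (0.15, adjusted p = 0.042) and without batch 3 (0.12, adjusted p = 0.034). In batch 1 it had 49.8, 49.7 and 50.6 CPM in EV, 50.9, 50.7, 55.0 and 50.4 in WT, and 52.6, 59.9, 57.8 and 51.7 in MUT, where MUT lay above EV and overlapped WT (MUT vs EV 0.13 ± 0.05, adjusted p = 0.17). BAD (chromosome 11, 64269830 to 64284704, minus strand), which survival kinases switch off by phosphorylation, had 38.8, 42.8 and 42.0 CPM in EV in batch 2, 44.8, 42.6 and 43.3 in WT, and 36.5, 39.8 and 33.9 in MUT. It fell by 0.24 ± 0.06 on the log2 scale in MUT against WT (adjusted p = 0.004) and by 0.16 ± 0.06 against EV, where the groups overlapped (adjusted p = 0.028). Both calls for BAD were lost with offsets that remove trends on GC content and length, at log2 values of -0.07 and -0.09. The call against EV was also lost in the model of 9 batch and medium groups. It was lost too when any of 4 of the 9 libraries of batch 2 was left out. BAD has a median transcript GC content of 64.7%, the highest of the 10. With the same offsets its MUT vs EV values were 0.17 in batch 1 (0.01 without them) and 0.05 in batch 3 (0.14 without them). Neither passed, with or without the offsets.

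**Figure D3:**
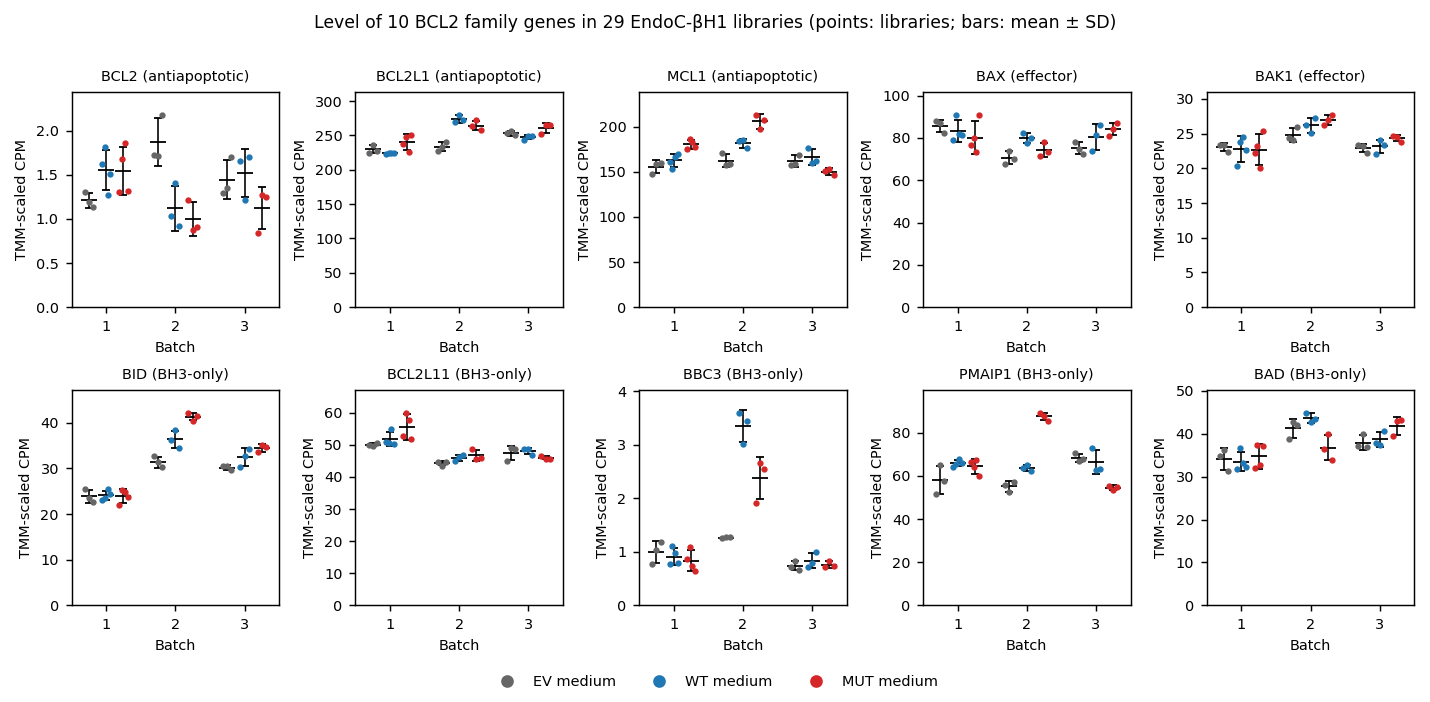
TMM-scaled CPM (y axis, from 0) of the 10 genes in the 29 libraries by batch (x axis) and medium (colour), each point a library, with mean ± SD. The MUT libraries of PMAIP1 sit at 85.5 to 89.1 CPM in batch 2 and at 53.3 to 55.5 in batch 3, and BBC3 sits at 3.02 to 3.59 CPM in the WT libraries of batch 2, above all others.

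Over all batches together, MUT medium differed from EV medium for 2 of the 10 members, BID and MCL1. BID was higher by a log2 value of 0.19 ± 0.04 (1.14-fold, adjusted p = 0.026) and MCL1 by 0.16 ± 0.05 (1.11-fold, adjusted p = 0.044), where 5.2% of all tested genes passed and 2.95% were higher. The median over the 10 members was 0.08, against 0.00 over all genes. BCL2L1 had 0.10 ± 0.03 and did not pass (adjusted p = 0.074). DESeq2 called 3 members, these 2 and BCL2L1, and so did edgeR with offsets for GC content and length. Neither call held for each batch alone, BID passing in batch 2 and MCL1 in batches 1 and 2. Without batch 2 neither passed, at 0.09 for BID and 0.06 for MCL1. Without batch 1 BID passed and MCL1 did not. Both calls were also lost when the libraries of each batch and medium were summed to 1 profile. Of 15 alternatives that keep all libraries or leave out a batch, 10 lost the call of MCL1 and 7 that of BID. BID lost its call without any of the 6 EV or MUT libraries of batch 2, and MCL1 without any of 19 libraries.

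Between the CEL media, 0 of the 10 passed for MUT vs WT (0.884% of all genes; 0 at an unadjusted p under 0.05, 0 with DESeq2 and 0 with voom), and the members' median was 0.03. WT vs EV gave 0 as well (0.315% of all genes; 0 with DESeq2 and 0 with voom), with BID and BBC3 at an unadjusted p under 0.05. BBC3 had the largest pooled value of WT vs EV, 0.52 ± 0.17 (adjusted p = 0.16; -0.01 without batch 2), and BID 0.11 ± 0.04 (adjusted p = 0.26). EV libraries enter both comparisons with EV medium, and WT and MUT libraries are shared likewise, so the 3 comparisons are not independent of each other.

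In batch 2 alone MUT vs EV called 7 members, where 47.8% of all tested genes passed, 24.1% higher and 23.8% lower. MCL1, BCL2L1, BID, BBC3 and PMAIP1 were higher, and BCL2 and BAD were lower. MUT vs WT called 5 against 33.1% of all genes (16.8% higher, 16.4% lower), with MCL1, BID and PMAIP1 higher and BBC3 and BAD lower. WT vs EV called 7 against 38.9% (19.6% higher, 19.3% lower), of which BCL2 was lower and BCL2L1, MCL1, BAX, BID, BBC3 and PMAIP1 were higher. By role, 2 of 3 antiapoptotic and 3 of 5 BH3-only genes rose in MUT against EV medium in batch 2, 1 of each kind fell, and neither effector passed. MCL1, BID and PMAIP1 were ordered EV, WT, MUT library by library in batch 2, a pattern that 5.3% of all genes showed in that batch and that no member showed in batches 1 and 3 (0.08% and 0.179% of all genes).

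Batch 1 called MCL1 alone for MUT vs EV (1.4% of all genes), 0 for MUT vs WT (0.277%; MCL1 at an unadjusted p under 0.05 and called by DESeq2, 0 with voom) and 0 for WT vs EV (0.0143%; PMAIP1 unadjusted, 0 with DESeq2 and voom). Batch 3 called PMAIP1 alone for MUT vs WT (1.22%), 0 for WT vs EV (0.00981%; 0 unadjusted, 0 with DESeq2 and voom) and 0 for MUT vs EV. For that last comparison 0.049% of all genes passed, 4 members had an unadjusted p under 0.05, DESeq2 called PMAIP1, and voom called BID and PMAIP1. Library values of MUT and EV nonetheless did not overlap in batch 3 for 6 members (25% of all genes), with BAX, BAK1 and BID higher in MUT and BCL2, MCL1 and PMAIP1 lower. In batch 2 the count was 8 (52.8%) and in batch 1 it was 3 (17%). For MUT vs WT it was 2 in batch 1 (10.2%), 5 in batch 2 (45.3%) and 4 in batch 3 (20.3%). For WT vs EV it was 1 in batch 1 (12%), BCL2L1, 8 in batch 2 (48.4%) and 1 in batch 3 (10.2%), again BCL2L1.

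The test of a medium difference that varied between batches called 7 members for MUT vs EV, where 44% of all genes passed. They were PMAIP1, MCL1, BID, BBC3, BCL2, BAD and BAX. For MUT vs WT it called PMAIP1, MCL1 and BAD (28.4% of all genes), and for WT vs EV it called BBC3, BCL2L1, BCL2 and PMAIP1 (24.1%). BAK1 and BCL2L11 were called in none of the 3, although BCL2L11 was called for MUT vs EV with GC and length offsets, with total library size and with voom. Offsets for GC content and length lost BAX (MUT vs EV) and BAD (MUT vs WT), and total library size lost BAX (MUT vs EV) and PMAIP1 (WT vs EV). Across genes, which are not independent replicates, the MUT vs EV change correlated with transcript GC content with a Spearman rho of -0.41 in batch 1, -0.09 in batch 2 and 0.35 in batch 3, and the MUT vs WT change with -0.24, -0.34 and 0.39.

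**Figure D4:**
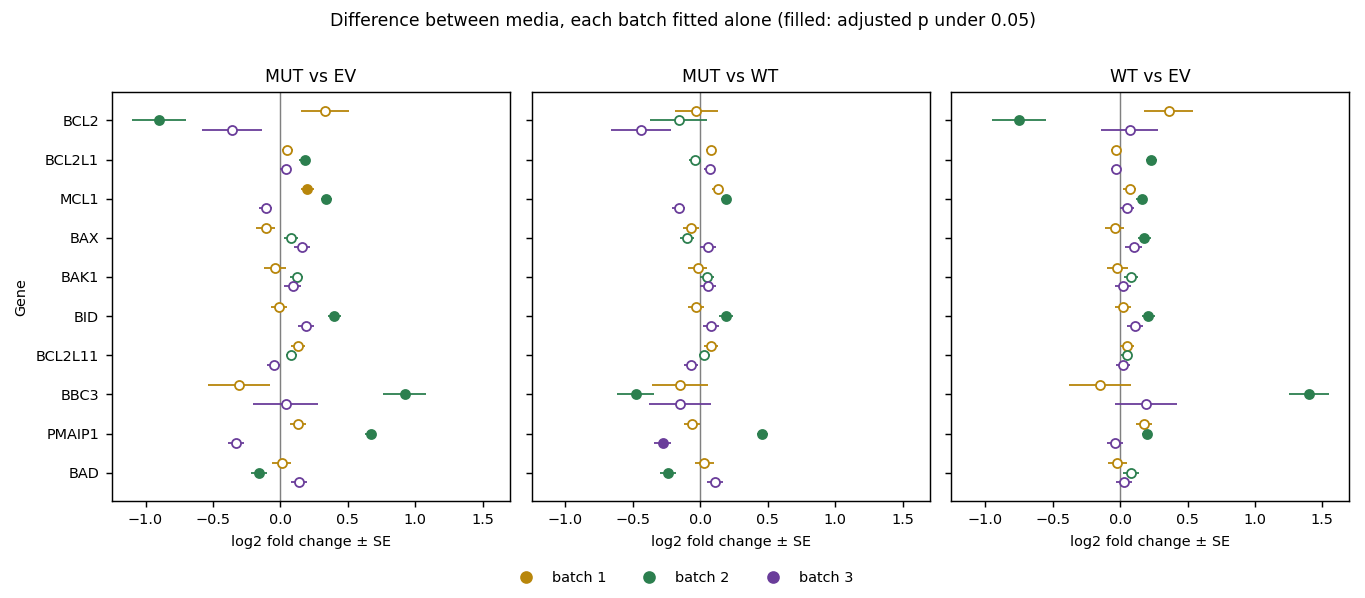
The log2 fold change ± SE (x axis) of each gene (y axis) for the 3 comparisons of media, with each batch fitted alone (colour) and filled points for an adjusted p under 0.05. Filled points outside batch 2 are MCL1 in batch 1 (MUT vs EV) and PMAIP1 in batch 3 (MUT vs WT), and PMAIP1 lies at 0.67 in batch 2 and -0.33 in batch 3 for MUT vs EV.

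Between batches, with medium in the model, 8 members differed between batches 2 and 1 (66.7% of all genes), 4 between batches 3 and 1 (56.6%) and 4 between batches 3 and 2 (44.5%). BBC3 was higher in batch 2 than in batch 1 by a log2 value of 1.32 ± 0.16 (adjusted p = 9.9e-09) and BID by 0.60 ± 0.04 (adjusted p = 2.4e-13). Among EV libraries alone the value of BBC3 was 0.30 and no longer passed, while BID kept 0.38. BCL2L11 fell by 0.20 ± 0.03 from batch 1 to batch 2 (adjusted p = 2.4e-06), and the same comparison in EV libraries alone also passed. EV libraries alone called BCL2, BAX, BID, BCL2L11 and BAD between batches 2 and 1. Between batches 3 and 1 they called BCL2L1, BAX, BID and PMAIP1, while BCL2L11 and BAD were lost. Between batches 3 and 2 they called BCL2L1, BBC3 and PMAIP1, while MCL1, BAK1 and BID were lost. A share of all genes for EV libraries alone is not given here.

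Members varied together to differing degrees. Over the 29 libraries, after each batch mean was subtracted, Pearson's r of log2 CPM had a median of 0.26 over 45 pairs and ran from -0.58 (BCL2 and BAK1) to 0.81 (MCL1 and PMAIP1). These values describe libraries that share batches and media, and no median over pairs of all genes was computed. For the members called in a pooled comparison, the genes with the most similar profile and at least 5 CPM were TMEM30A (r = 0.957), ATP6AP2 (0.952) and GOLM2 (0.950) for MCL1, and ARL3 (0.895), SMARCD1 (0.849) and KAT8 (0.844) for BID.

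The other genes of the pathway, 88 in 9 lists of which 83 were tested, divided by batch as all genes did. Pooled, 2 passed for MUT vs EV (5.2% of all genes), both higher, and 0 for the other comparisons (16 each at an unadjusted p under 0.05). They were TMBIM6, an ER membrane inhibitor of BAX-driven death (0.17 ± 0.04, adjusted p = 0.028), and MAPK9, the kinase JNK2 that phosphorylates BH3-only proteins (0.11 ± 0.03, adjusted p = 0.041). In batch 2 alone 27 of 82 rose and 22 fell in MUT against EV medium (24.1% and 23.8% of all genes), with a median of 0.08 against 0.00 over all genes. In batches 1 and 3 alone 0 passed in any of the 3 comparisons, where 0.00981% to 1.4% of all genes did, with 5 to 23 at an unadjusted p under 0.05.

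Among other BCL2 family genes, BMF, a BH3-only gene, rose in batch 2 from 11.8 ± 0.0762 CPM in EV (SD, n = 3) to 19.6 ± 1.64 in WT and 26.2 ± 0.769 in MUT (MUT vs EV log2 1.16 ± 0.06, adjusted p = 2.9e-10). HRK, another BH3-only gene, rose from 0.944 ± 0.0616 CPM in EV to 1.74 ± 0.197 in MUT (adjusted p = 8.4e-04) and 1.95 ± 0.368 in WT (adjusted p = 2.4e-04). The antiapoptotic BCL2L2 rose in MUT against EV (0.20 ± 0.04, adjusted p = 2.2e-04). For MUT vs EV in batch 2, 2 of 4 proapoptotic and 1 of 2 tested antiapoptotic relatives passed, all of them higher. BOK, a relative of BAX and BAK1, had -0.05 ± 0.07 (adjusted p = 0.61) there and rose in WT against EV (0.40 ± 0.07, adjusted p = 1.7e-04).

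Among the caspases, which act before and after the mitochondrial step, 5 of 7 fell in MUT against EV medium in batch 2 and none rose, with a median of -0.31. Of all genes 23.8% were lower and 24.1% higher in that comparison, which is the background for the other lists as well. CASP2, an initiator caspase, fell by 0.39 ± 0.04 on the log2 scale (adjusted p = 2.9e-07), from 175 ± 4.76 to 134 ± 0.823 CPM. CYCS, cytochrome c itself, rose (0.41 ± 0.05, adjusted p = 5.1e-06), and VDAC1, an outer membrane channel, fell by 0.43 ± 0.04 (adjusted p = 8.4e-08). Of the 11 mitochondrial death factors, which include CYCS and VDAC1, 7 passed, 3 of them higher and 4 lower. Among the inhibitors of apoptosis 1 of 6 rose and 2 fell in MUT against EV medium. BIRC3 (cIAP2), which keeps caspase-8 from being activated at the TNF receptor, stood at 4.43 ± 0.252 CPM in EV libraries, 5.99 ± 0.0435 in WT and 2.58 ± 0.285 in MUT, falling by 0.77 ± 0.11 on the log2 scale in MUT against EV (adjusted p = 1.9e-05) and rising by 0.43 ± 0.10 in WT (adjusted p = 0.003). BIRC5 (survivin), a gene of dividing cells, stood at 45.4 ± 2.44 CPM in EV libraries, 28.4 ± 0.438 in WT and 49.4 ± 0.76 in MUT, a fall by 0.68 ± 0.05 in WT (adjusted p = 9.4e-09).

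Of the regulators of member transcription, 9 of 13 passed for MUT vs EV in batch 2, 4 higher and 5 lower. TP73, a transcription factor gene, fell from 11.0 ± 0.717 CPM in EV to 3.93 ± 0.148 in WT and 3.93 ± 0.0364 in MUT in batch 2 (MUT vs EV adjusted p = 7.6e-10). ATF5, a stress-induced factor of β cells, rose in WT against EV in batch 2 (1.06 ± 0.04, adjusted p = 1.1e-11), and its MUT vs EV value was 0.08 ± 0.04 (adjusted p = 0.17). DDIT3 (CHOP), which activates BH3-only genes under ER stress, rose in WT against EV as well (0.50 ± 0.06, adjusted p = 6.4e-06). Of the regulators of member proteins, 12 of 19 passed for MUT vs EV in batch 2 (9 higher, 3 lower), and of the death receptors and adaptors 4 of 9 (2 higher, 2 lower). The death receptor gene TNFRSF10B rose in both CEL media in batch 2, by 1.69 ± 0.20 in MUT (adjusted p = 1.9e-06) and 1.55 ± 0.20 in WT (adjusted p = 8.9e-06).

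Other measures moved with medium in batch 2 beside these genes. The summed stroma markers stood at 1.95 to 2.49 CPM in EV libraries, 5.15 to 6.42 in WT and 5.57 to 6.18 in MUT libraries. COL1A1 alone, with TMM scaling, stood at 1.52 to 1.88, 4.98 to 6.20 and 5.18 to 6.02. COL1A2 stood at 0.38 to 0.551 CPM in EV, 0.146 to 0.383 in WT and 0.239 to 0.405 in MUT, and the defining markers LUM (0 in all libraries of batch 2), DCN and COL3A1 were at or near 0. The 8 acinar markers summed to 25.9 to 29.3 CPM in EV, 21.9 to 23.3 in WT and 21.8 to 23.9 in MUT libraries of batch 2, and in batch 1 to 44.1 to 46.9, 37.7 to 40.2 and 39.4 to 45.7. Of these 8, 2 reached a mean of 1 CPM and 2 were at 0 in all libraries. INS, the insulin gene, fell by 0.44 ± 0.05 on the log2 scale in MUT against EV medium in batch 2 (adjusted p = 8.9e-07). In batch 3 it was higher in MUT (18300 ± 1950 CPM) than in EV (13000 ± 655), and in batch 1 it stood at 9880 ± 867 and 10400 ± 1590. The part of these in the members' results was not tested. The mitochondrial share of counts in batch 2 was 5.03% ± 0.227 in EV, 4.01% ± 0.0337 in WT and 5.07% ± 0.299 in MUT. In batch 1 it was 7.69% ± 0.604, 7.21% ± 0.283 and 6.2% ± 0.311, and in batch 3 4.43% ± 0.185, 4.19% ± 0.516 and 4.76% ± 0.279.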

How the data were processed

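Polyadenylated RNA of 29 libraries was analysed. The deposited values are estimated counts of Ensembl genes, not normalized, made with fastp and kallisto per the submitters' processing notes. Versions, build, annotation and strand setting: not given in the sources used here. Symbols and GRCh38 coordinates came from GENCODE by Ensembl identifier.

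Counts were rounded, filtered with filterByExpr, scaled by TMM and tested with edgeR 4.0.16 (quasi-likelihood, R 4.3.3, limma 3.58.1) in a model of batch and medium over all libraries, with 24 residual degrees of freedom. Each batch was also fitted alone, and the interaction of medium and batch was tested with 2 degrees of freedom. P-values were Benjamini-Hochberg adjusted over all genes tested, and a gene was called at an adjusted p under 0.05. Errors of log2 fold changes are standard errors, and CPM are given as mean ± SD. The counting error is the square root of the count relative to the count. The procedure was tested on simulated data.

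The members and gene lists were chosen with earlier results of these data known. Named genes were all members, CEL, INS, the called list genes with the smallest p (in batch 2 where a pooled comparison called none) and the 3 genes most similar to each pooled call. Genes overlapping a member, pseudogenes and cell type markers are named beside the values they touch. Some list genes are not reported here. Alternatives were DESeq2 1.42.0, limma voom with quality weights or with correlated libraries, other scalings and filters, summed profiles, GC and length offsets, a replicate block, and leaving out each batch or library. The number of EV library 2 of batch 1 breaks the sequence of its batch, and the library was used as labelled. Libraries were not paired by replicate number in the main model. Figures were drawn with matplotlib 3.10.9.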

Additional observations from a re-analysis of the deposited data

Results flagged for a closer look

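The difference between media varied between the 3 batches for 8 members, by the edgeR interaction test with adjustment over all genes. The 8 are counted over all comparisons together, and the test was often passed outside the family too. Of all genes, 44% passed it with MUT set against EV medium, 28.4% with MUT against WT and 24.1% with WT against EV. A share of all genes for the comparisons together is not given here. For MUT vs EV the adjusted p was 8.3e-10 for PMAIP1 (log2 0.13, 0.67 and -0.33 in batches 1, 2 and 3), 1.5e-05 for MCL1 (0.20, 0.34 and -0.11), 8.2e-04 for BID (-0.01, 0.40 and 0.19) and 0.0012 for BBC3 (-0.31, 0.92 and 0.04). It was 0.002 for BCL2 (0.33, -0.90 and -0.36), 0.033 for BAD (0.01, -0.16 and 0.14) and 0.044 for BAX (-0.11, 0.08 and 0.16).

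For MUT vs WT it was 3.4e-07 for PMAIP1 (-0.06, 0.46 and -0.28), 6.0e-04 for MCL1 (0.13, 0.19 and -0.16) and 0.011 for BAD (0.03, -0.24 and 0.11). For WT vs EV it was 5.0e-05 for BBC3 (-0.15, 1.40 and 0.19), 2.7e-04 for BCL2L1 (-0.03, 0.23 and -0.03), 0.0087 for BCL2 (0.36, -0.75 and 0.07) and 0.045 for PMAIP1 (0.18, 0.20 and -0.04). The values in parentheses are the batches fitted alone. The calls of BAX and, for MUT vs WT, BAD were lost with offsets for GC content and length.

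In 1 group of 4 libraries a library stood apart from the rest. BCL2L11 was at 55.0 CPM in WT library 3 of batch 1, against 50.4, 50.7 and 50.9 in the others. It was 1 of 50 groups of 4 to 10 libraries examined, and by chance about 1 in 20 would show such a gap.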

How the results depend on the processing

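Of 138 counts of called members under alternatives that keep all libraries or leave out a batch, 113 stayed within 1.5 times the reported count. A count can stay while its members change. Without batch 1 the pooled MUT vs EV count was still 2, with BCL2 and BID. For single members, 3749 of 3870 values kept their side of the threshold with no called value changing sign, 81 lost a call, 37 gained one and 3 reversed. The sign differed in 95 of the 3870, these 3 included. The pooled MUT vs EV count of 2 was 0 with summed profiles, voom with quality weights, voom with correlated libraries, no batch term, only the 2 groups compared and without batch 2, and 0 with the replicate block. It was 1 (BID) with no low-count filter and with total library size, and 5 (BCL2L1, MCL1, BID, BCL2L11 and PMAIP1) without batch 3. MUT vs WT was 1 (MCL1) without batch 3, against 0. In batch 1 alone MUT vs EV, 1 as reported, was 0 with GC and length offsets, 2 in a model of 9 batch and medium groups, and 0 with the replicate block. MUT vs WT there was 1 with DESeq2 (MCL1), GC and length offsets (BCL2L1) and the 9-group model (MCL1), against 0. In batch 3 alone MUT vs EV, 0 as reported, was 1 (PMAIP1) with DESeq2, GC and length offsets, the 9-group model, no low-count filter and the replicate block, and 2 (BID and PMAIP1) with voom. Differences between batches 2 and 1 fell from 8 to 5 in EV libraries only. Variation between batches for MUT vs WT rose from 3 to 5 with voom. In EV libraries only, BCL2 between batches 2 and 1 reversed to 0.62, and between batches 3 and 2 BCL2L1 reversed to 0.12 and PMAIP1 to 0.31. The causes were not tested.

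Leaving out a library gave 0 to 2 for pooled MUT vs EV, with 0 without any of the 6 EV and MUT libraries of batch 2 and 1 without any of 13 others. In the batches alone MUT vs EV gave 0 to 2 in batch 1 (2 without MUT library 4, 0 without any of 9 others), 6 to 7 in batch 2 and 0 to 3 in batch 3 (3 without WT library 1, 1 without WT library 3). MUT vs WT gave 3 to 6 in batch 2, the 3 without WT library 3, and 0 to 1 in batch 3. The tests of variation between batches called 5 to 9 members (MUT vs EV), 2 to 4 (MUT vs WT) and 3 to 4 (WT vs EV). Same-number pairs had a median correlation of deviations of -0.012 (28 pairs, -0.25 to 0.45), and different-number pairs -0.011 (66 pairs, -0.45 to 0.41). Over 0.1 were 9 of the 28 and 16 of the 66. Of 29 libraries, 14 correlated best with their own number. The number expected by chance was not computed, so these values do not settle whether replicate numbers pair the libraries. Summing entries per symbol was not run, since each member has 1 entry. Depth limits BCL2 and BBC3 most, at 26 and 19 counts in their lowest libraries.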
